A study of Sorghum bicolor with 12 samples.

Results

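The xyloglucan fucosyltransferase cluster of Sorghum bicolor consists of 3 loci with neighbouring numbers on chromosome 4, Sobic.004G308200, Sobic.004G308400 and Sobic.004G308600. Its members were chosen as every transcript in the deposited table whose identifier begins with one of these loci, which gave 6 of 47205 transcripts and 3 of 34211 loci. Sobic.004G308200 had 1 transcript in the table, Sobic.004G308400 had 3 and Sobic.004G308600 had 2. The study's list of differentially expressed cell wall transcripts places the first transcript of each locus among the genes of hemicellulose synthesis, with the Arabidopsis xyloglucan fucosyltransferase AT2G03220 as the best match of each. That list was drawn from these same libraries, so it was known beforehand that each of the 3 first transcripts varied between internodes. The enzyme activity of the sorghum proteins was not measured here.

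The samples were 12 RNA-seq libraries, 3 from each of 4 successive stem internodes of the photoperiod-sensitive bioenergy sorghum inbred R.07020. All plants were untreated, of this 1 genotype, grown under 14 h days and harvested 60 days after planting, before floral induction. Int1 was the youngest visible internode below the shoot apex and Int4 the oldest, which had stopped expanding. The study set Int1 and Int2, as internodes with dividing cells, apart from the more elongated Int3 and Int4. Internodes stripped of leaves and sheaths were taken from 3 plants.

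Xyloglucan is a hemicellulose that coats and links cellulose in primary walls. Its glucan backbone is made in the Golgi by glycosyltransferases of the cellulose synthase-like C (CSLC) family, xylose and galactose are then added as side chains, and a fucosyltransferase may cap the galactose with fucose. After secretion, xyloglucan endotransglucosylase/hydrolases (XTH) cut the backbone and rejoin it to other chains. Grass walls hold less xyloglucan than the walls of most other flowering plants, and its side chains carry little fucose.

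Expression was given as RPKM, the number of reads scaled for both transcript length and the mapped reads of the library. The RPKM of a library summed to between 467612 and 508319, and low values gave a relative depth of 0.833 to 1.056 times that of the first Int1 library. The internode label was checked with the secondary wall cellulose synthases, which mark xylem and sclerenchyma: Sobic.003G296400.1 averaged 4.12, 17.8, 205 and 146 RPKM in Int1, Int2, Int3 and Int4 (n = 3 each). Among Int3 libraries, replicate 3 had the highest level of this transcript, 276.7 RPKM, against 171.58 and 167.13 RPKM in replicates 1 and 2. Over the 7008 transcripts called between Int4 and Int1, the 3 Int3 libraries lay at 0.66, 0.73 and 0.79 of the way from the Int1 mean to the Int4 mean, replicate 3 being nearest to Int4. The median transcript was 0.25 lower in Int4 than in Int1 on the log2 scale (-0.25). After scaling by median ratios, this median was -0.01, and 60.6% of the transcripts called between Int4 and Int1 were higher in Int4, compared with 46.6% as deposited.

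The 3 loci differed in the internode where they were most abundant. Sobic.004G308600 had its highest level in Int1, Sobic.004G308200 in Int3 and Sobic.004G308400 in Int4. Over all 26320 transcripts tested, 40.9% had their highest mean in Int1, 21.6% in Int3 and 23.0% in Int4. The summed level of the 3 loci was 6.03 ± 0.739 RPKM in Int1, 6.34 ± 0.261 RPKM in Int2, 15 ± 1.07 RPKM in Int3 and 16.7 ± 2.02 RPKM in Int4 (SD, n = 3 each). The sums in Int3, 13.77 to 15.64 RPKM, and in Int4, 14.75 to 18.77 RPKM, overlapped, while the highest sum in Int1 or Int2 was 6.88 RPKM.

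The make-up of this sum changed between Int3 and Int4 although its size overlapped. In Int1, Sobic.004G308600 contributed 48.9% ± 7.4 of the sum while Sobic.004G308200 contributed 28.1% ± 1.39 and Sobic.004G308400 23.0% ± 6.24. In Int2 the shares of Sobic.004G308200, Sobic.004G308400 and Sobic.004G308600 were 31.6% ± 3.21, 29.5% ± 4.29 and 38.9% ± 3.29. In Int3 they were 46.5% ± 4.6, 41.7% ± 1.74 and 11.8% ± 3.61. In Int4, Sobic.004G308400 alone made up 81.3% ± 3.46, while Sobic.004G308200 gave 17.0% ± 3.15 and Sobic.004G308600 1.73% ± 0.813 (SD, n = 3 each). These shares are a description of RPKM, and no test was run on them. Since each library holds RNA of a whole internode, fewer cells that express a gene and less RNA per cell cannot be told apart.

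**Figure D1:**
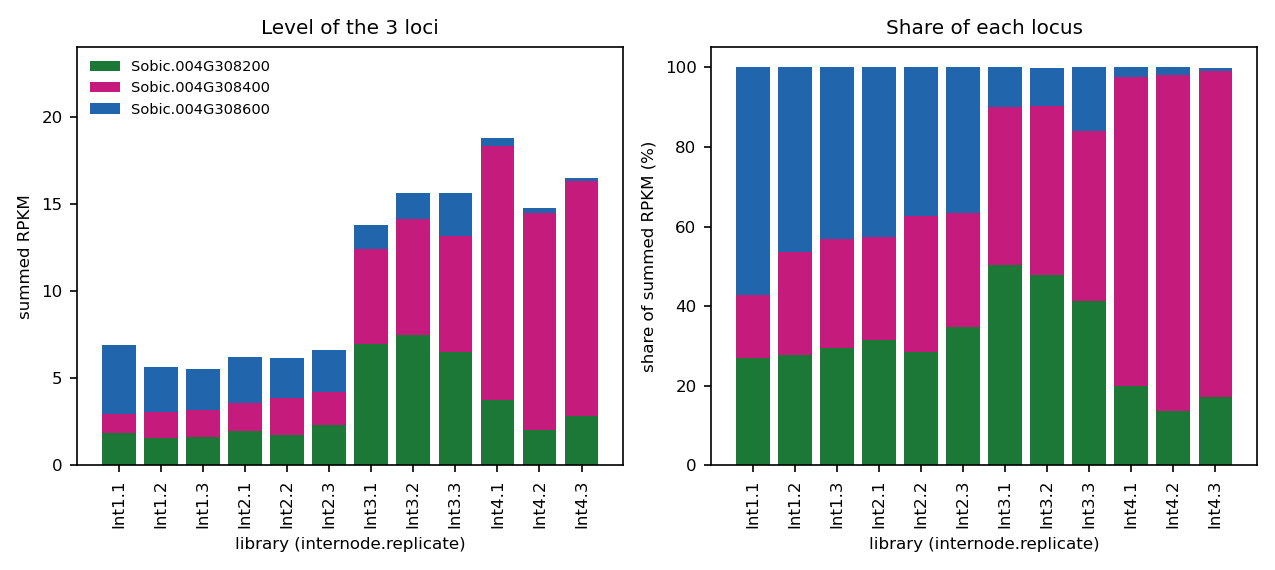
Summed RPKM of the 3 loci (left) and the share of each locus in that sum in percent (right), 1 bar for each of the 12 libraries, named by internode and replicate. Sobic.004G308600 holds 36.6 to 57.3% of the sum in the Int1 and Int2 libraries, and Sobic.004G308400 holds 77.6 to 84.4% in the Int4 libraries.

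Sobic.004G308400.1 increased along the stem, from the youngest internode to the oldest. Its level was 0.76, 0.62 and 0.87 RPKM in the Int1 libraries, 1.07, 1.61 and 1.51 RPKM in Int2, 4.89, 5.54 and 5.27 RPKM in Int3, and 11.49, 9.39 and 11.69 RPKM in Int4. The 3 libraries of each internode lay apart from those of every other internode. The mean was 10.9 ± 1.27 RPKM in Int4 and 0.75 ± 0.125 RPKM in Int1 (SD, n = 3 each), a log2 fold change of 3.18 (SE 0.17) with a limma adjusted p of 2.5e-08. Fold changes are on the log2(RPKM + 0.5) scale, which understates the change of weakly expressed genes.

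The steps of this increase were not equally well resolved. Sobic.004G308400.1 rose by 1.61 (SE 0.17) on the log2 scale in Int3 compared with Int2, with a limma adjusted p of 2.28e-05. The difference of Int4 from Int3 was 0.98 (SE 0.17), just under the 2-fold threshold, with a limma adjusted p of 0.00124, and it was not called. After median-ratio scaling the same difference was 1.13 with a limma adjusted p of 0.000448, which passed, and over all 21 alternative settings the adjusted p was 0.000448 to 0.00693. The difference of Int2 from Int1 was 0.59 (SE 0.17) and was not called (limma adjusted p = 0.0383). In the 6 Int3 and Int4 libraries the level was 4.89 to 11.69 RPKM (median 7.46), against 0.62 to 1.61 RPKM (median 0.97) in the 6 Int1 and Int2 libraries. The groups did not overlap, and the exact 2-sided permutation test of 6 against 6 libraries gave p = 0.00216, the smallest value that the test can give. The 4 internodes were taken from the same 3 plants, so the 6 libraries of a group are not 6 independent plants. This p and the others of the same test treat them as if they were. The limma fit of the 12 libraries has no term for the plant either, so its p values share this limit. The 3 first transcripts were also known beforehand, from the study's list, to vary between these same libraries. Their p values in both tests are therefore not independent evidence that they vary.

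The other transcripts of the locus were much less abundant, and both had their highest mean in Int4. Their means reached the 1 RPKM needed for testing only in Int4 (Sobic.004G308400.2 1.63 RPKM, Sobic.004G308400.3 1.01 RPKM). Their peak in Int4, and the limma p values for Int4 below, are therefore not independent of that filter. Sobic.004G308400.2 was at 1.58, 2.33 and 0.99 RPKM in Int4, against 0.11, 0.61 and 0.25 RPKM in Int1. Its Int4 libraries all lay above its Int1 libraries, but the lowest Int4 value was within the range of Int3, which was 0.27, 0.43 and 1.01 RPKM. Sobic.004G308400.3 was at 1.49, 0.73 and 0.82 RPKM in Int4, against 0.22, 0.24 and 0.39 RPKM in Int1, again without overlap. Neither passed every part of the call in any comparison. The log2 fold change of Int4 against Int1 was 1.37 (SE 0.3, limma adjusted p = 0.00179) for Sobic.004G308400.2 and 0.92 (SE 0.21, limma adjusted p = 0.00221) for Sobic.004G308400.3. For Sobic.004G308400.3 the difference of Int4 from Int2, 1.13 (SE 0.21, limma adjusted p = 0.000696), passed the p and fold thresholds, but its mean stayed under 2 RPKM in both internodes.

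The first transcript held most of the RPKM of this locus once its level was high. Its share was 56.5% ± 13.8 in Int1 and 74.2% ± 6.55 in Int2, then 83.9% ± 5.27 in Int3 and 80.3% ± 5.71 in Int4 (SD, n = 3 each). From the spacing of the low values, Sobic.004G308400.2 rested on about 3, 17 and 6 reads in the Int1 libraries and Sobic.004G308400.3 on about 6, 7 and 10 reads, so the Int1 shares carry a large counting error. Transcripts of a locus share most of their sequence, and how the alignment divided shared reads is not given in the sources used here, so the split between transcripts is less certain than the locus sum. Summed over its transcripts, Sobic.004G308400 was at 13.5 ± 1.06 RPKM in Int4 and 1.36 ± 0.232 RPKM in Int1 (SD, n = 3 each).

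**Figure D2:**
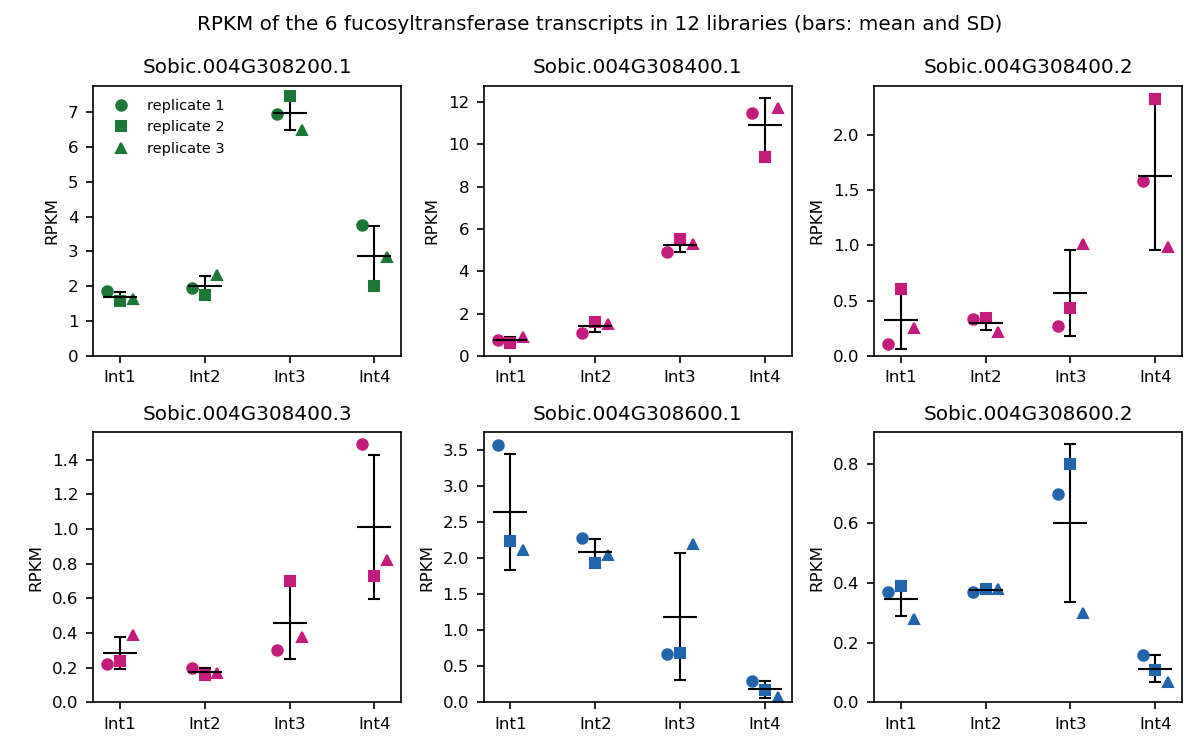
RPKM of each of the 6 transcripts in the 12 libraries, by internode from the youngest (Int1) to the oldest (Int4), with 1 panel for each transcript and its own axis from 0. Marker shapes are replicates, and black bars give the mean and the SD of 3 libraries. Sobic.004G308200.1 is highest in Int3, Sobic.004G308400.1 in Int4 and Sobic.004G308600.1 in Int1.

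Sobic.004G308200.1 was highest in Int3. Its level was 1.85, 1.57 and 1.64 RPKM in Int1, 1.96, 1.75 and 2.31 RPKM in Int2, 6.94, 7.45 and 6.48 RPKM in Int3, and 3.75, 2.02 and 2.84 RPKM in Int4. All 3 Int3 libraries lay above the 9 others, and the Int4 and Int2 libraries overlapped. The order of the means was Int3 (6.96 ± 0.485 RPKM), Int4 (2.87 ± 0.865 RPKM), Int2 (2.01 ± 0.283 RPKM) and Int1 (1.69 ± 0.146 RPKM; SD, n = 3 each). The log2 difference of Int4 from Int2 was 0.4 (SE 0.19, limma adjusted p = 0.0966) and was not called in the fit or in any alternative, although after median-ratio scaling it was 0.56 with a limma adjusted p of 0.0302. Over all alternative settings this adjusted p was 0.0185 to 0.351. The difference of Int2 from Int1, 0.19 (SE 0.19, limma adjusted p = 0.53), was not called either.

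The rise of Sobic.004G308200.1 in Int3 was 1.58 (SE 0.19) on the log2 scale relative to Int2, with a limma adjusted p of 6.59e-05, and 1.77 (SE 0.19) relative to Int1, with a limma adjusted p of 1.26e-05. It fell by 1.18 (SE 0.19) in Int4 relative to Int3, with a limma adjusted p of 0.000976, close to the threshold of 0.001. This call was lost in 11 of the 12 fits that each left out a library, in which the adjusted p reached 0.00502 and the log2 fold change ranged over the 12 fits between -1.36 and -0.98. It was also lost after median-ratio scaling, where the change was -1.05 with a limma adjusted p of 0.0024. Over all 21 alternative settings the adjusted p was 0.000575 to 0.0113, and the call was kept in 5. Among these 5, a looser adjusted p under 0.05 and a mean of at least 2 RPKM over both groups reuse the main fit. They therefore have its limma adjusted p of 0.000976. In Int4, replicate 1 had the highest level of this transcript, 3.75 RPKM, and was the only library whose omission kept the call. For Int4 against Int1 the difference was 0.59 (SE 0.19) and was not called (limma adjusted p = 0.0168).

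Over the wider contrast, Sobic.004G308200.1 ranged over 2.02 to 7.45 RPKM (median 5.12) in the 6 Int3 and Int4 libraries, against 1.57 to 2.31 RPKM (median 1.8) in the 6 Int1 and Int2 libraries. The groups overlapped through 1 Int4 library at 2.02 RPKM. The exact 2-sided permutation test gave a difference of 1.09 on the log2 scale with p = 0.00433. Without Int4 replicate 1 the fitted difference was 0.99, below the 2-fold threshold.

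Sobic.004G308600.1 was the transcript that was lower in the older internodes. Its level was 3.57, 2.24 and 2.11 RPKM in Int1, 2.28, 1.93 and 2.05 RPKM in Int2, 0.67, 0.69 and 2.2 RPKM in Int3, and 0.3, 0.17 and 0.07 RPKM in Int4. The Int4 libraries lay below all others, whereas Int3 was split, with replicate 3 within the range of Int1 and Int2. The means were 0.18 ± 0.115 RPKM in Int4 and 2.64 ± 0.808 RPKM in Int1 (SD, n = 3 each), a log2 fold change of -2.19 (SE 0.31) with a limma adjusted p of 5.62e-05. The 3 Int4 values correspond to about 8, 5 and 2 reads.

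Relative to Int2, Sobic.004G308600.1 fell by 1.94 (SE 0.31) on the log2 scale in Int4, with a limma adjusted p of 0.000196. This call was lost without Int2 replicate 1, Int4 replicate 2 or Int4 replicate 3, where the adjusted p was at most 0.00114 and the change -1.94 to -1.82. The contrasts of successive internodes were not called: Int4 against Int3, with -1.21 (SE 0.31, limma adjusted p = 0.0129), Int3 against Int2, with -0.73 (SE 0.31, limma adjusted p = 0.0759), and Int2 against Int1, with -0.25 (SE 0.31, limma adjusted p = 0.614). For Int3 against Int1 the difference was -0.98 (SE 0.31) and was not called (limma adjusted p = 0.0168). Without Int3 replicate 3 this difference was -1.38 with a limma adjusted p of 0.000554, which passed, the only one of 21 alternative settings to do so (adjusted p up to 0.0717). Int3 replicate 3 was also the Int3 library with the highest level of the secondary wall cellulose synthase Sobic.003G296400.1, 276.7 RPKM, and the part of this in the result was not tested. Over the 6 Int3 and Int4 libraries the level was 0.07 to 2.2 RPKM (median 0.48), against 1.93 to 3.57 RPKM (median 2.17) over the 6 Int1 and Int2 libraries, a log2 difference of -1.46 (exact 2-sided permutation p = 0.00866).

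Sobic.004G308600.2 was too weakly expressed to enter the test, with a mean under 1 RPKM in every internode. It was at 0.37, 0.39 and 0.28 RPKM in Int1, 0.37, 0.38 and 0.38 RPKM in Int2, 0.7, 0.8 and 0.3 RPKM in Int3, and 0.16, 0.11 and 0.07 RPKM in Int4. All Int4 libraries lay below the others, and Int3 was split in the opposite direction to Sobic.004G308600.1, with replicate 3 the lowest. Its share of the RPKM of its locus was therefore 51.1, 53.7 and 12% in the Int3 libraries, against 9.39, 14.8 and 11.7% in the Int1 libraries. These levels stand for about 16, 19 and 7 reads in Int3 and about 10, 11 and 7 reads in Int1, so the shares are imprecise, and they were not tested. Between the Int3 and Int4 libraries and the Int1 and Int2 libraries its log2 difference was -0.08 (exact 2-sided permutation p = 0.708).

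Of the 6 transcripts, 5 entered the test of each comparison. A transcript was called where its limma adjusted p over all 26320 transcripts was under 0.001, its change was at least 2-fold, and its mean was at least 2 RPKM in 1 of the internodes compared. In Int2 against Int1, 0 of the 5 were called, beside 0.475% of all transcripts tested. The smallest limma p of the 5 was that of Sobic.004G308400.1, 0.00403 before and 0.0383 after adjustment over all transcripts tested. In Int3 against Int2, 2 were called, both higher (Sobic.004G308200.1 and Sobic.004G308400.1), beside 9.13% of all transcripts called and 4.81% called higher. In Int4 against Int3, 1 was called (Sobic.004G308200.1, lower), beside 4.1% of all transcripts called and 1.61% called lower. When RPKM was summed over the transcripts of each locus, this comparison gave 2 calls, Sobic.004G308200 lower and Sobic.004G308400 higher, beside 6.27% of the 20607 loci tested. The sum of Sobic.004G308600 changed by -1.51 (SE 0.23) on the log2 scale, with a limma adjusted p of 0.000352. It passed the p and fold thresholds but was not called, since its mean stayed under 2 RPKM in both internodes.

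In Int3 against Int1, 2 of the 5 were called, both higher (Sobic.004G308200.1 and Sobic.004G308400.1), beside 18.3% of all transcripts called and 9.01% called higher. In Int4 against Int2, 2 were called, Sobic.004G308400.1 higher and Sobic.004G308600.1 lower, beside 19.4% of all transcripts, 10% called higher and 9.41% lower. In Int4 against Int1 the calls were again Sobic.004G308400.1 higher and Sobic.004G308600.1 lower, 2 of 5 beside 26.6% of all transcripts, 12.4% called higher and 14.2% lower. For Int3 and Int4 together against Int1 and Int2 together, 3 of 5 were called, Sobic.004G308200.1 and Sobic.004G308400.1 higher and Sobic.004G308600.1 lower, beside 20.3% of all transcripts, 10.4% called higher and 9.98% lower. This count was 2 with a pseudocount of 1, where Sobic.004G308200.1 was at 0.95, and 2 with a mean of at least 2 RPKM required over both groups, where Sobic.004G308600.1 was not called. The comparisons share internodes, so these counts are not independent of each other. Every transcript called was 1 of the 3 first transcripts, known beforehand from the study's list to vary between these libraries. The counts are therefore no evidence of an excess over the share of all transcripts. Whether the changes of the 3 loci differed from one another was not tested.

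**Figure D3:**
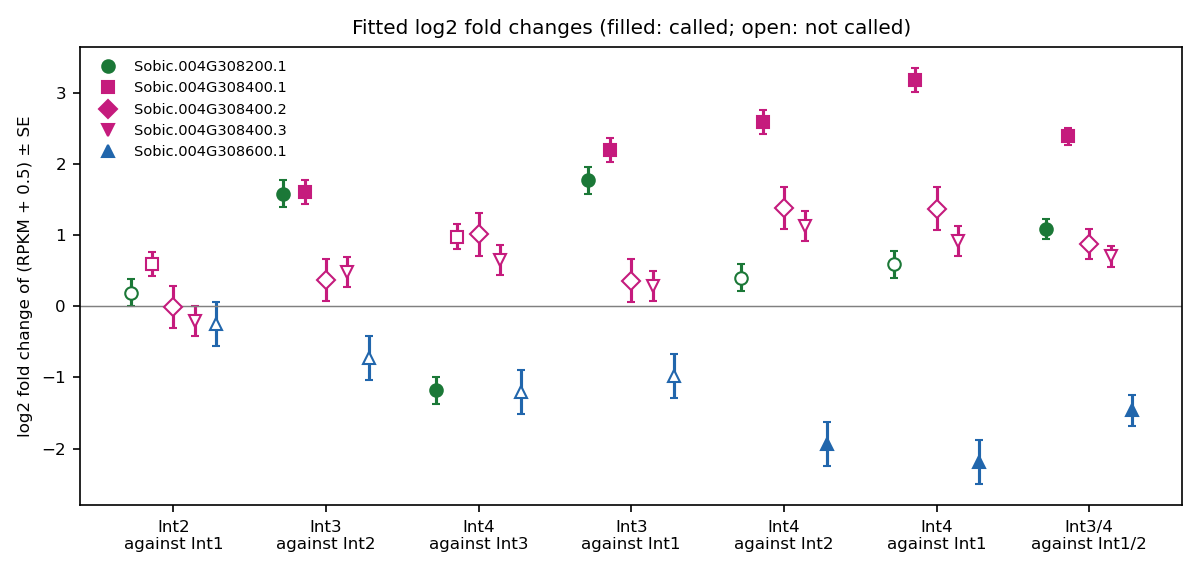
Fitted log2 fold changes of (RPKM + 0.5) for the 5 transcripts tested in each of the 7 comparisons, the older internode over the younger, with bars of 1 SE. Filled markers were called and open markers were not. Sobic.004G308400.1 reaches 3.18 and Sobic.004G308600.1 -2.19 in Int4 against Int1, while Sobic.004G308200.1 is at 1.58 in Int3 against Int2 and at -1.18 in Int4 against Int3.

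The loci around the cluster were examined for position. A single locus lies between each pair of neighbouring members by number, and 5 loci on either side were added, which gave 12 loci with 14 transcripts, of which 7 were abundant enough to be tested. The 2 loci in between were weakly expressed: Sobic.004G308300 was listed at 0 in 9 libraries and reached 0.11 RPKM, and Sobic.004G308500 was at 0.06 to 0.67 RPKM with its highest mean in Int2. Sobic.004G308100, next to the cluster, was at 51.01 to 80.16 RPKM, far above the members in every library, with means of 54.6, 57.2, 73.5 and 62.5 RPKM in Int1, Int2, Int3 and Int4. Sobic.004G308700, on the other side, had means of 1.97, 2.19, 1.5 and 1.01 RPKM in the same order. Both Sobic.004G308800 and Sobic.004G309100, were listed at 0 in all 12 libraries.

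Farther out, 3 of the 7 neighbouring transcripts tested, from 2 loci, were called in Int4 against Int1, beside 26.6% of all transcripts. Sobic.004G308900.1 rose by 2.58 (SE 0.22) on the log2 scale, with means of 2.97 RPKM in Int4 and 0.0667 RPKM in Int1 (limma adjusted p = 1.15e-06). Its mean reached the 1 RPKM needed for testing only in Int4, so this p and this call are not independent of that filter. Sobic.004G307900.1 fell by 2.47 (SE 0.27), with means of 0.137 RPKM in Int4 and 3.01 RPKM in Int1 (limma adjusted p = 8.45e-06), and Sobic.004G307900.2 fell by 2.06 (SE 0.26; limma adjusted p = 2.69e-05).

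**Figure D4:**
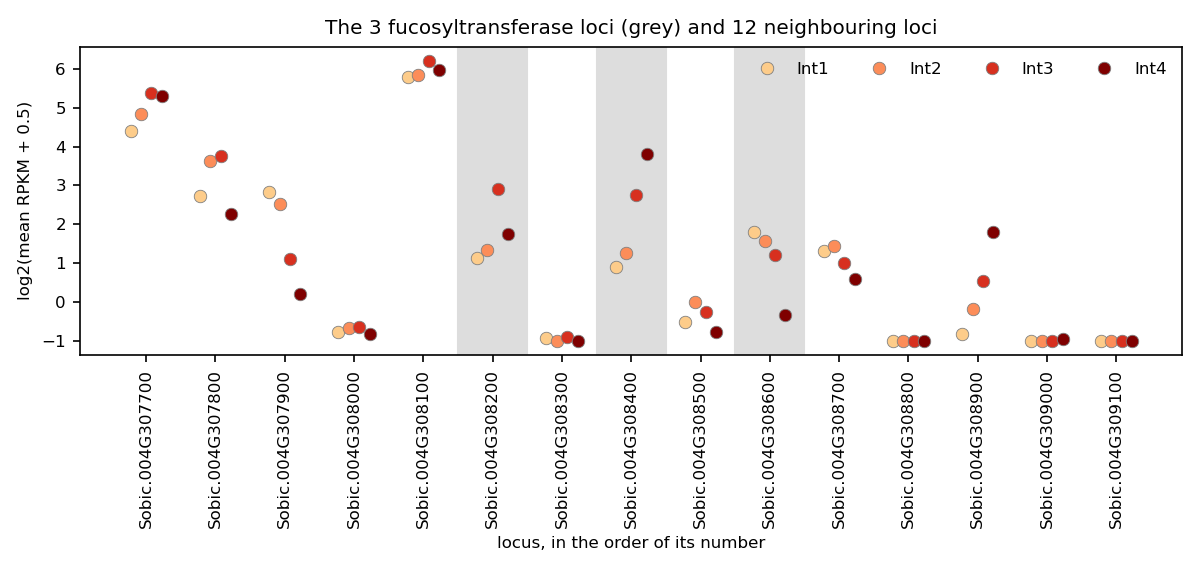
Mean level of the 3 fucosyltransferase loci (grey bands) and of 12 neighbouring loci, as log2(mean RPKM + 0.5) on the vertical axis, with the loci in the order of their numbers. Points are the means of 3 libraries of Int1, Int2, Int3 and Int4, and points at -1 are loci at 0. Sobic.004G308100 lies above the members in every internode, and the 2 loci between the members lie below them.

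For each first transcript, the transcripts whose log2(RPKM + 0.5) was most alike over the 12 libraries were listed by Pearson correlation among 26315 others tested. The libraries fall into 4 internodes and share their developmental order, so these correlations are a description and carry no test. For Sobic.004G308400.1 the closest were Sobic.002G419000.1 (r = 0.997), Sobic.010G221032.1 (r = 0.996) and Sobic.008G040800.1 (r = 0.996). Among the 194 other cell wall transcripts compared, the closest were Sobic.003G384900.1, a pectin acetylesterase by its match (r = 0.99), Sobic.006G217300.1, a match of MUR4, which converts UDP-xylose to UDP-arabinose (r = 0.989), and Sobic.002G208200.1, a CSLC match (r = 0.987). The means of Sobic.002G208200.1 were 6.56, 10.4, 20.3 and 30.4 RPKM in Int1, Int2, Int3 and Int4.

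For Sobic.004G308200.1 the closest transcripts were Sobic.001G184400.1 (r = 0.966), Sobic.006G031900.1 (r = 0.964) and Sobic.009G034500.1 (r = 0.961). Sobic.006G031900.1 is an alpha-expansin, a family of proteins that loosen growing walls, and its means were 0.37, 0.897, 35.2 and 1.57 RPKM in Int1, Int2, Int3 and Int4. It was also the closest cell wall transcript, followed by Sobic.005G087400.2 (r = 0.948) and Sobic.005G087400.6 (r = 0.931), which match an arabinofuranosidase and xylosidase that trims side chains of wall polysaccharides.

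For Sobic.004G308600.1 the closest transcripts were Sobic.001G108100.1 (r = 0.976), Sobic.002G158500.12 (r = 0.975) and Sobic.010G220200.1 (r = 0.973). The closest of the cell wall transcripts were Sobic.003G405800.1 (r = 0.946), whose Arabidopsis match is a regulatory subunit of an SNF1-related protein kinase, the XTH Sobic.001G441700.1 (r = 0.931) and the pectin acetylesterase Sobic.004G269400.1 (r = 0.929). Sobic.001G441700.1 had means of 33.4, 26.6, 7.34 and 2.36 RPKM in Int1, Int2, Int3 and Int4.

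The other genes of the xyloglucan pathway were taken from the study's list of cell wall transcripts, which was selected for differential expression on these libraries, so their counts are not independent evidence of a direction. Of 3 CSLC transcripts, 1 was called higher in Int4 than in Int1, 1 was called lower and 1 was not called. Over all transcripts tested, 26.6% were called in this comparison, 12.4% higher and 14.2% lower. Sobic.002G208200.1 rose by 2.12 (SE 0.11) on the log2 scale (limma adjusted p = 2.82e-08), and Sobic.002G022700.1 fell by 1.49 (SE 0.22; limma adjusted p = 9.45e-05), with means of 0.503 RPKM in Int4 and 2.24 RPKM in Int1. Sobic.003G308100.1 was not called, with a log2 fold change of -0.72 (SE 0.16, limma adjusted p = 0.00166) and means of 12.8, 20.8, 22.3 and 7.73 RPKM from Int1 to Int4. The CSLC transcripts, like those of the fucosyltransferases, therefore had their highest means in different internodes.

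Of 17 XTH transcripts, 7 were called higher in Int4 than in Int1, 8 were called lower and 2 were not called. These counts stand beside 12.4% of all transcripts called higher and 14.2% called lower. They come from the same list selected on these libraries, so they show no excess over those shares. The XTH list had a median log2 fold change of -0.38, beside -0.25 over all transcripts tested. Sobic.010G246700.1 was the most abundant, with means of 394, 771, 1020 and 595 RPKM in Int1, Int2, Int3 and Int4, and was not called in Int4 against Int1, with 0.58 (SE 0.14, limma adjusted p = 0.00263). Sobic.007G090436.1 rose by 5.83 (SE 0.41) and Sobic.006G228100.1 fell by 6.36 (SE 0.37), with means of 3.39 ± 2.97 RPKM in Int4 and 267 ± 25.2 RPKM in Int1 (SD; limma adjusted p = 2.16e-07 and 5.18e-08). The members of the cluster were thus expressed at a low level beside the most abundant XTH transcripts on the RPKM scale.

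Glucuronoxylan, another hemicellulose, was set beside xyloglucan. Its 5 transcripts come from the same list, selected for differential expression on these libraries, so their direction is not independent evidence either. In Int4 against Int1, 4 were higher, 0 were lower and 1 was not called, beside 12.4% of all transcripts called higher and 14.2% called lower. Among those higher, Sobic.001G479800.1 and Sobic.001G479800.2 are transcripts of 1 locus. The median log2 fold change of the list was 3.19, beside -0.25 over all transcripts tested. The one not called, Sobic.009G026101.1, had a limma log2 fold change of 0.54 (SE 0.12, limma adjusted p = 0.00198, unadjusted p under 0.05). The most abundant, Sobic.003G376700.1, had means of 316 ± 22.2 RPKM in Int4 and 121 ± 6.31 RPKM in Int1 (SD, n = 3 each) and rose by 1.38 (SE 0.11; limma adjusted p = 7.15e-07). Sobic.001G479800.2 rose by 3.8 (SE 0.39; limma adjusted p = 4.81e-06) and Sobic.001G409100.1 by 3.53 (SE 0.18; limma adjusted p = 2.24e-08).

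**Figure D5:**
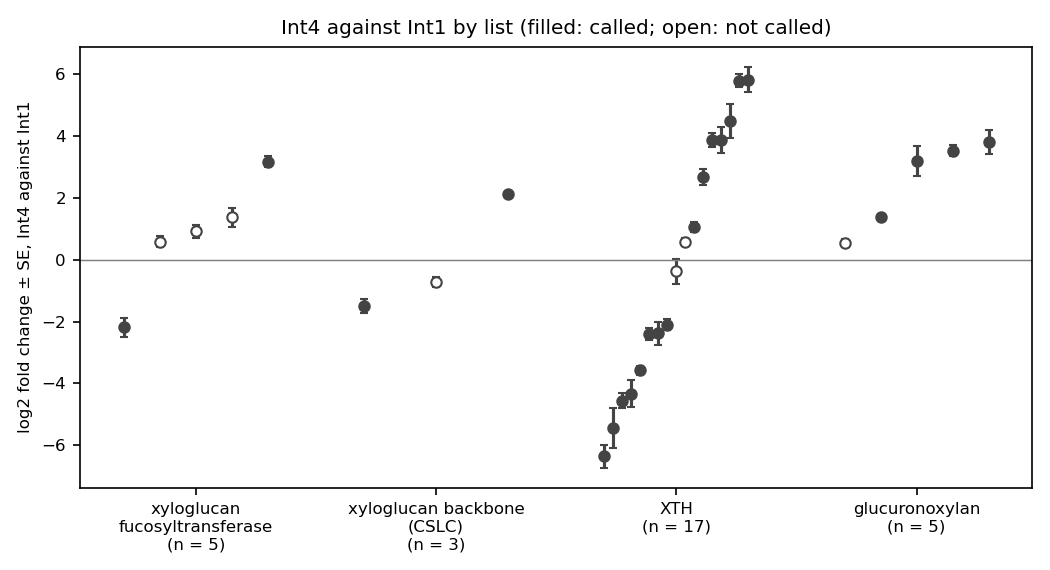
Fitted log2 fold changes of Int4 against Int1 with bars of 1 SE, for the 5 fucosyltransferase transcripts tested and the 3 CSLC, 17 XTH and 5 glucuronoxylan transcripts of the study's cell wall list, ordered by value within each list. Filled points were called and open points were not. The first 3 lists hold points on both sides of 0, and all 5 glucuronoxylan points lie above 0.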

How the data were processed

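Single-end reads of 12 polyadenylated RNA libraries (TRIzol, TruSeq v2, Illumina HiSeq) were aligned by the authors to the Sorghum bicolor v3.1 transcripts with CLC Genomics Workbench (version not given in the sources used here). The deposited values are RPKM per transcript, rounded to 2 decimals. The authors' edgeR test on counts was not repeated, since counts were not used here. RPKM values were tested as log2(RPKM + 0.5) with limma 3.58.1 (R 4.3.3; trend in the prior variance, 1 mean per internode, 12 libraries), over 26320 transcripts with a mean of at least 1 RPKM in at least 1 internode, with Benjamini-Hochberg adjustment. Calls needed an adjusted p under 0.001, a change of at least 2-fold and a mean of at least 2 RPKM in 1 group, after the study's thresholds. A single transcript was also tested by an exact 2-sided permutation of 6 against 6 libraries in Python 3.11.15 with scipy 1.17.1. With 3 against 3 libraries an exact permutation test cannot go below p = 0.10, so it was not run for pairs of internodes. The limma script was tested on simulated data.

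The members and gene lists were chosen with earlier results of these data known. Named were all transcripts of the 3 loci, loci between them or within 5 on either side, for each member the 3 most correlated transcripts overall and among the cell wall transcripts, and for each pathway list the 2 most abundant and the 2 with the largest Int4 to Int1 change. The table of RefSeq genes supplied could not be matched to these identifiers, so roles come from the study's annotation. Reads were estimated from the spacing of values under 1.2 RPKM, with a tolerance of 0.0065 RPKM plus a relative 0.002. Such estimates and their precision cover counting error only, and total reads per library were not used.

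Deviations from the internode means were correlated between Int1 and Int2 libraries of the same number (r of 0.104 to 0.137), over the limit of 0.1 set for pairing. No other pair of internodes met it in all 3 numbers. Between Int2 and Int4 the same numbers gave r of 0.045 to 0.235. Between Int3 and Int4 the same numbers gave r of -0.339 to 0.182, and different numbers -0.189 to 0.374. A block by replicate number may thus join libraries that deviate in opposite directions. The replicate number is not stated to be the plant.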

Additional observations from a re-analysis of the deposited data

How the results depend on the processing

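Of the log2 fold changes of single members, 686 kept their direction and their side of the threshold under an alternative, 25 lost a call, 2 gained one and 4 changed sign without a call. Many of the 686 could not change direction. An adjusted p under 0.05 and a mean of at least 2 RPKM over both groups reuse the main fit. Omitting a library of an internode not compared leaves the fold change as it was. The total is therefore not a measure of robustness. The sign changes were those of Sobic.004G308400.2 in Int2 against Int1, -0.01, which was 0.07 with a pseudocount of 0.1, 0.02 after median-ratio scaling and -0.2 to 0.23 over the omissions of 1 library. Int4 against Int3 was the least stable comparison. Its 1 call became 0 with a pseudocount of 0.1, without the filter on low values, with the replicate block, and in a fit on the libraries compared only, and 2 with RPKM summed over each locus. Leaving out 1 library gave 0 to 1 calls there, 1 to 2 in Int4 against Int2, where the calls fell to 1 without Int2 replicate 1, Int4 replicate 2 or Int4 replicate 3, 2 to 3 in Int3 against Int1, where the third call needed the omission of Int3 replicate 3, and 2 to 3 in Int3 and Int4 against Int1 and Int2. Int4 against Int2 gave 1 call without the filter on low values. With a mean of at least 2 RPKM required over both groups, Int4 against Int2 and Int4 against Int1 gave 1 call each and Int3 and Int4 against Int1 and Int2 gave 2 in place of 3, since Sobic.004G308600.1 averages under 2 RPKM over both. With a pseudocount of 1 the last count was also 2, with Sobic.004G308200.1 at 0.95. The difference of Sobic.004G308600.2 between the older and younger pairs, -0.08, was 0.02 without Int4 replicate 3 and ranged between -0.22 and 0.02 over the omissions. The replicate block changed no other member count. This included 0 calls in Int2 against Int1, the only pair of internodes with all 3 numbers over the limit for pairing. Libraries of the same number are not known to come from 1 plant. Over all transcripts, the block gave 84 calls in Int2 against Int1, beside 125 without it. The fit on the libraries compared only gave 0 and 115 calls over all transcripts in Int2 against Int1 and Int4 against Int3, beside 125 and 1080, and was not run for the contrast of both pairs, which uses all libraries. Except where stated, the cause was not tested. Depth limits the low values of Sobic.004G308400.2, Sobic.004G308400.3, Sobic.004G308600.1 and Sobic.004G308600.2, which rested on fewer than 30 reads where reads could be estimated. Only values under 1.2 RPKM could be estimated, which by itself bounds these read numbers from above. For Sobic.004G308600.1 the estimate covered 5 Int3 and Int4 libraries, and its higher Int1 and Int2 values were not covered.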

Other observations

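The weaker transcripts of the cluster had other closest patterns than the first transcripts of their loci. For Sobic.004G308400.2 the most alike over the 12 libraries was Sobic.007G131800.1 (r = 0.958, means of 1.59, 1.52, 2.5 and 5.58 RPKM in Int1, Int2, Int3 and Int4), and among the cell wall transcripts it was the XTH Sobic.010G246600.1 (r = 0.919, means of 0.0167, 0.06, 1.48 and 11.5 RPKM). For Sobic.004G308400.3 they were Sobic.007G025800.1 (r = 0.96) and the XTH Sobic.001G284600.1 (r = 0.895). For Sobic.004G308600.2 they were Sobic.007G139600.1 (r = 0.948) and the CSLC transcript Sobic.003G308100.1 (r = 0.815, means of 12.8, 20.8, 22.3 and 7.73 RPKM). These correlations are descriptions over 12 libraries in 4 internodes. The neighbouring loci Sobic.004G307700 and Sobic.004G307800 had their highest means in Int3, at 41.2 and 13.0 RPKM.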
